A study of Macaca mulatta with 60 samples.

Results

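The left ventricle (LV) of early gestation (EG) rhesus monkey fetuses was compared between fetuses of dams that received bisphenol A (BPA) and fetuses of control dams. These are 6 of the 60 samples of the study, chosen by their labels, 3 from BPA exposed fetuses (numbered 4, 5 and 6) and 3 from controls (numbered 1, 2 and 3). All fetuses were female Macaca mulatta. In the BPA group the dams ate 400 µg/kg body weight of BPA in a piece of fruit once a day from gestation day 50 to day 100, and the control dams ate fruit with the ethanol vehicle over the same days. The EG fetuses were then removed by caesarian section, so the tissue stands for the end of the exposure and for 1 sex and 1 dose. The other samples come from the LV of late gestation (LG) fetuses and from the right ventricle (RV), left atrium (LA), right atrium (RA) and biceps femoris muscle (BFM) of both windows, each with 3 BPA exposed fetuses and 3 controls. EG samples that carry the same number come from the same fetus in every tissue, and the LG fetuses are other animals, whose dams ate the same daily dose or the vehicle from day 100 to term and whose tissue was taken after birth.

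BPA is a synthetic monomer of polycarbonate plastics that binds estrogen receptors and has been reported to act on other nuclear receptors, among them those of thyroid hormone. The left ventricle of a fetus is mostly cardiomyocytes by mass, with fibroblasts, endothelium, smooth muscle and blood cells between them, and its muscle runs on slow beta myosin before birth and is remodelled as the heart grows. Signals that reach this tissue include hormones, cytokines and the extracellular matrix, and some of the proteins below are of these kinds.

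Each LV array gave a log2 level for 26149 transcripts, and the medians of the 12 LV arrays lay between 6.55 and 6.66. Between 71 and 810 transcripts per array shared the array's lowest value, which lay between −1.20 and 0.63, so that for a transcript there the array gives no more than a bound from above. A level depends on the probes as well as on the RNA, and it is used below to place a transcript above the floor or around the array median, not to rank genes. The array of control fetus 2 stood apart from the others. Its median correlation with the other LV arrays was 0.858, against 0.905 to 0.930 for the other 11, and limma gave it the lowest of the 12 array weights, 0.372. Its 25th percentile was the highest of the 12 (4.68) and its 75th percentile the lowest (8.68), so its levels were drawn in from both ends. Among tested transcripts at or below the array medians, control fetus 2 was the highest of the 3 controls for 44.9%. The number of arrays limits the precision of every comparison.

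Of the 17628 transcripts with an interquartile range of at least 0.5 over the LV arrays, 163 changed by at least 1 on the log2 scale (a factor of 2 or more) at an unadjusted limma p of at most 0.01, the study's criteria. This was 0.925% of those tested. BPA exposed fetuses were higher for 48 (0.272%) and lower for 115 (0.652%), so that 29.4% of the calls were rises, against 41.3% (64 of 155) when the arrays were quantile normalized again. At that p, 176.3 of the tested transcripts would pass if no transcript differed. After Benjamini-Hochberg adjustment 0 transcripts had a limma p of at most 0.05 (the smallest adjusted p was 0.375), and 854 had an unadjusted p of at most 0.05 (4.84%). In the text, log2 fold change (LFC) is BPA minus control on the log2 scale, and higher, lower, passed and called refer to the unadjusted criteria. For 10.7% of tested transcripts, and likewise for 10.7% of all 26149, the groups did not overlap, meaning that every BPA exposed fetus lay above, or every one below, all 3 controls.

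The transcripts that passed lay mostly at low levels. Of the 163, 4 had a mean EG level above the array medians, where 30.3% of the tested transcripts lay, so that 0.0748% of tested transcripts above the medians passed against 1.29% of those at or below them. The median SD within groups was 0.50 above the medians and 0.91 at or below them. Taking only the 14558 tested transcripts that were well above the floor (a mean over the 6 EG arrays at least 4 log2 units above each array's lowest value), 111 passed, or 0.762%.

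**Figure D1:**
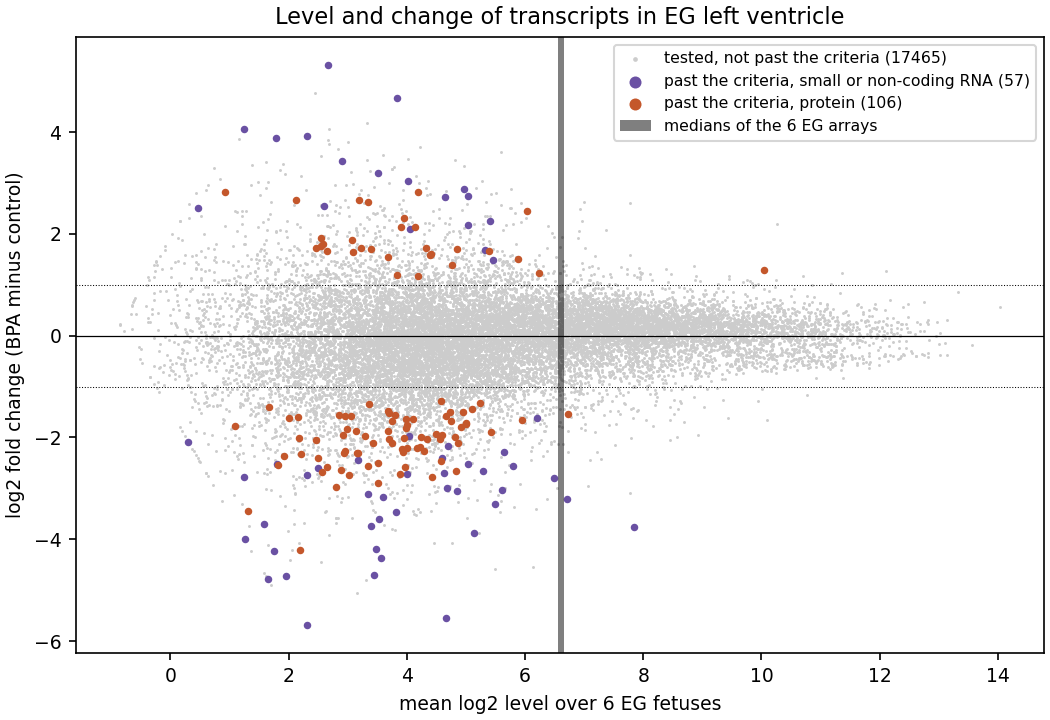
Log2 fold change (BPA minus control, vertical axis) against the mean log2 level over the 6 EG fetuses (horizontal axis) of the 17628 tested LV transcripts, with the 106 proteins and 57 small or non-coding RNAs that passed the criteria in colour, a dark band over the array medians and dotted lines at a change of 1. All but 4 of the coloured points lie at or left of the medians, and the cloud of tested transcripts is wider there than on the right.

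The authors described 106 of the 163 transcripts as proteins, 76 with a protein name and 30 without, and the others as small or non-coding RNAs. Because that list was drawn from the same 6 arrays, the LV EG values of its members are given as a description and not as a test. Of the 106 proteins, 30 rose and 76 fell with BPA, at a median LFC of −1.73 (−0.02 over all tested transcripts). The groups did not overlap for 103 of the 106, against 10.7% of all tested transcripts. The members were called on these same values, so a high count follows from their selection. Well above the floor lay 72 of the 106 (21 higher, 51 lower), and 2 touched the lowest value on an EG array. At the edge of that height, PROM1 (3.95 log2 units above the lowest value) and ARSI (4.00, just under the limit) were left out, and IL16 (4.02) and MSMB (4.02) were kept. Of the 76 named proteins 23 were higher and 53 lower, at a median LFC of −1.73. The groups by function used below were assembled from these proteins with their values known, so a group's counts of rises and falls describe its members and are no test of a direction. Every one of the 76 named proteins had the same limma adjusted p of 0.982. The 8 largest rises and 12 largest falls among the 48 named proteins that were well above the floor, did not overlap between groups and touched no lowest value are described fetus by fetus, within groups by function. The height is a mean over both groups, and 6 of these 20 (IFI27L1, MAK, SYCE1, GIF, TNFSF8 and PAX6) reached it in each group taken alone, as did 25 of the 76 named proteins. For the other 14 the lower group had a mean height of 2.75 to 3.91 and passed through the group where the level was high, so their LFC rests on levels near the floor and their order by size is only nominal. Levels are given in the order of fetuses 1, 2 and 3 for controls and 4, 5 and 6 for BPA. In a sample of whole ventricle, fewer cells of a type and less RNA per cell cannot be told apart.

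Immune mediators were 9 of the named proteins, 3 higher and 6 lower, with a median LFC of −1.92, and 6 of the 9 were well above the floor. TNFSF8, the CD30 ligand of activated lymphocytes (ENSMMUT00000007224), had levels of 5.10, 7.67 and 5.72 in controls and 3.51, 3.91 and 3.07 in BPA exposed fetuses. All 3 controls were above all 3 exposed fetuses, control fetus 2 by far the highest, and the difference was LFC = −2.67, SE 0.71. Interleukin-16 (IL16), a chemoattractant of CD4+ cells, gave 3.87, 5.54 and 3.52 in controls against 2.51, 1.87 and 1.65 with BPA. Here too control fetus 2 was the highest and the groups were apart, at LFC = −2.30, SE 0.73. The other immune falls were HRH4 (histamine H4 receptor, LFC −2.64), CLEC4F (a C-type lectin, −2.01), IFNW1 (interferon omega-1, −1.92) and TBXAS1 (thromboxane synthase, −1.65). IFNW1 belongs to a family of near-identical genes, so its signal may be shared. In the opposite direction, IFI27L1, a relative of an interferon alpha inducible protein, rose from 5.53, 4.84 and 4.03 in controls to 6.96, 6.50 and 8.29 in exposed fetuses. It was highest in BPA fetus 6 and lowest in control fetus 3, LFC = 2.45, SE 0.76. TNF and IL18, a pair of inflammatory cytokines, were higher by 1.92 and 1.72, with levels of 1.64, 1.46 and 1.68 and 1.32, 1.87 and 1.62 in controls, not well above the floor. With 1 fetus left out at a time, 3 to 5 of the 9 still passed. Without control fetus 2, TNFSF8 was at LFC −1.92 and IL16 at −1.69 and neither passed, nor did IFI27L1 (2.47), while IL18, HRH4, CLEC4F and TBXAS1 did.

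Markers of leukocytes were read beside these values. Of 8 leukocyte transcripts named from other comparisons of the study, 7 were tested and 0 passed in LV EG by limma (0.925% of all tested transcripts did), at a median LFC of −0.32, and the mean level of the 8 per fetus lay between 5.26 and 5.53 in controls and between 5.18 and 5.35 with BPA. The groups did not overlap for 3 of the 8, against 10.7% of all transcripts. CD52, a surface antigen of lymphocytes, was at 8.71, 8.99 and 8.12 in controls and 7.65, 7.35 and 8.09 in exposed fetuses (LFC = −0.91, SE 0.63, exact two-sided permutation p = 0.1). Cathepsin S (CTSS, LFC = 0.80, SE 0.56) and acyloxyacyl hydrolase (AOAH, LFC = 1.20, SE 0.87), both of myeloid cells, lay above the controls in every exposed fetus, each with an exact permutation p of 0.1, the smallest that 3 fetuses against 3 allow. The other myeloid and leukocyte transcripts overlapped between groups, with LFC of −0.72 for CSF3R, −0.41 for FCGR2B, −0.75 for CSF2RB, −0.23 for APBB1IP and 0.02 for LCP2. The part of leukocyte number in the immune mediators was not tested.

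Hormones, signalling and membrane proteins formed the largest group, 13 named proteins of which 4 were higher and 9 lower (median LFC −2.10, 9 well above the floor). The largest fall of the described proteins was in FSHB, the beta subunit of follicle stimulating hormone, made in the pituitary (ENSMMUT00000026546), with 5.19, 5.69 and 4.02 in controls and 1.83, 3.36 and 1.02 in exposed fetuses. The lowest control stood above the highest exposed fetus, BPA fetus 5, and the difference was LFC = −2.90, SE 0.82, with a mean height of 2.81 above the lowest values in exposed fetuses. PCSK1, the convertase that cleaves prohormones in neuroendocrine cells, read 4.43, 6.48 and 4.32 in controls and 1.97, 2.79 and 3.60 with BPA. Control fetus 2 was again the highest and BPA fetus 4 the lowest (LFC = −2.29, SE 0.62). GH2, the growth hormone variant of the placenta, had 3.70, 5.92 and 4.81 in controls and 2.27, 2.39 and 3.43 in exposed fetuses. Control fetus 1 and BPA fetus 6 lay close together on either side of the gap between the groups, at LFC = −2.11, SE 0.58, and the growth hormone genes are near-identical copies, so the signal cannot be assigned to 1 of them. Among the rises, the synaptic vesicle glycoprotein SV2A gave 1.65, 4.42 and 2.31 in controls and 4.72, 5.83 and 4.78 in exposed fetuses. Control fetus 2 was here close to the exposed fetuses and the other controls far below (LFC = 2.32, SE 0.71). RND1, a small GTPase that loosens the actin cytoskeleton, gave 1.90, 2.23 and 2.99 and 3.45, 4.31 and 4.53 with no overlap (LFC = 1.73, SE 0.53). Other falls included the nicotinic receptor subunit CHRNB2 (−2.10) and the ephrin receptor EPHA5 (−1.76). ARRDC2 (−2.74), RASAL1 (−2.68) and the synaptic calcium binding protein CABP4 (−1.68) were lower, and the endocytic adaptor STON1 (1.81) and PROM1 (1.65) higher. When a fetus was left out, 3 to 9 of the 13 passed, fewest without control fetus 2, when FSHB was at −2.53, PCSK1 at −1.59, GH2 at −1.56 and RND1 at 1.66 and none of these 4 passed, whereas SV2A was at 3.13 and passed with CHRNB2 and ARRDC2.

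Of 11 extracellular matrix and secreted proteins, 2 were higher and 9 lower (median LFC −1.87, 7 well above the floor), beside 53 lower of the 76 named proteins. HAS1, which makes the matrix polysaccharide hyaluronan (ENSMMUT00000018313), measured 3.78, 5.95 and 4.14 in controls and 3.00, 2.70 and 0.49 in exposed fetuses. BPA fetus 6 was far below the other exposed fetuses and control fetus 2 far above the other controls, and the difference was LFC = −2.56, SE 0.77. The exposed fetuses had a mean height of 2.81, with fetus 6 close to the lowest value of its array. MMP1, the collagenase that cuts fibrillar collagen, was at 4.62, 6.39 and 3.31 in controls and at 2.13, 2.24 and 2.41 with BPA. The exposed fetuses lay close together while the controls were widely spread (LFC = −2.51, SE 0.66). MSMB, a secreted protein best known from the prostate, gave 3.36, 5.65 and 3.95 against 2.10, 2.15 and 1.80. Its exposed fetuses were again tight and the controls led by fetus 2 (LFC = −2.30, SE 0.71). Hemopexin (HPX, a plasma carrier of heme) was lower in each exposed fetus, 4.11, 3.64 and 3.95 against 1.81, 2.51 and 1.52, with controls that agreed closely (LFC = −1.95, SE 0.38). Mucin MUC5B (−1.87), the trefoil factor TFF1 (−1.65), SLURP1 (−1.74), WFIKKN2 (−2.05) and the sulfatase ARSI (−1.87) were also lower, and the epithelial protease inhibitor SPINK5 (1.51) and desmocollin DSC3 (1.76) were higher. With a fetus left out, 4 to 7 of the 11 passed. MMP1 passed without control fetus 2 (−1.70) but not without BPA fetus 4 (−2.45), and without control fetus 2 HAS1 (−1.90) and MSMB (−1.64) did not pass while MUC5B, SPINK5, DSC3 and HPX did.

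Among enzymes and transporters 2 were higher and 6 lower (median LFC −1.91, 6 of 8 well above the floor). SLC23A1, a carrier of vitamin C, had levels of 4.98, 6.48 and 3.87 in controls and 3.15, 2.48 and 3.11 in exposed fetuses. Control fetus 2 stood highest and BPA fetus 5 lowest (LFC = −2.20, SE 0.66). Gastric intrinsic factor (GIF), which binds vitamin B12 in the gut, was at 4.75, 4.16 and 4.75 in controls and 5.34, 6.72 and 6.58 with BPA. Control fetus 2 was here the lowest of the 6 and BPA fetus 4 was the exposed fetus nearest to the controls (LFC = 1.66, SE 0.51). The phosphate transporter SLC17A1 was the other rise (1.16), with the smallest change of all called transcripts. Nucleoside transporter SLC28A3 (−2.11), the retinoid inducible RARRES3 (−1.82), ABHD1 (−1.57), neutral ceramidase ASAH2 (−2.01) and VNN3 (−2.37) were lower, the groups overlapping for the latter pair. By limma 0 of the 8 passed without control fetus 2 (8 had an unadjusted p of at most 0.05), where SLC23A1 was at −1.51 and GIF at 1.46 and the median was −1.43, and 1 to 4 passed without each of the other fetuses.

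All 6 transcription regulators were lower (LFC from −2.54 to −1.44, 3 well above the floor). PAX6, a regulator of eye, brain and islet development, gave 5.03, 6.98 and 5.45 in controls and 3.59, 2.30 and 4.18 in exposed fetuses. Control fetus 2 was the highest, BPA fetus 5 the lowest, and the difference was LFC = −2.46, SE 0.66. ZNF409 was one of the few proteins with a mean level above the array medians, at 7.20, 8.34 and 6.95 in controls and 6.61, 5.81 and 5.44 with BPA (LFC = −1.54, SE 0.49). The erythroid factor KLF1 was lower (5.76, 6.22 and 5.49 against 4.54, 4.29 and 4.33, LFC = −1.44, SE 0.45), while the erythroid enzyme ALAS2, named from another comparison, was at 8.66, 8.72 and 8.45 and 8.62, 7.75 and 8.93 (LFC = −0.18, SE 0.62, exact two-sided permutation p = 0.8). SALL4 (−2.40), HNF4G (−2.54) and DMRT3 (−1.59), factors of stem cells, gut and gonad, were lower too and not well above the floor. Leaving out a fetus left 1 to 5 of the 6 past the criteria, and without control fetus 2 only SALL4 passed and PAX6 was at −1.88.

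Of 6 germ cell proteins, 5 were higher and 1 lower (median LFC 1.70, 3 well above the floor). MAK, a kinase of the male germ line and of ciliated cells (ENSMMUT00000007788), had 4.34, 1.97 and 2.90 in controls and 5.34, 5.26 and 5.00 with BPA. The exposed fetuses lay close together and control fetus 1 was nearest to them (LFC = 2.13, SE 0.56). SYCE1, part of the synaptonemal complex of meiosis, read 4.24, 3.08 and 3.09 in controls and 4.71, 4.76 and 6.11 in exposed fetuses, with BPA fetus 6 highest (LFC = 1.73, SE 0.51). HORMAD1, another meiotic protein (1.67), RNF32 (1.61) and ZSWIM2 (2.81) were higher too, and PKDREJ, a sperm receptor, was lower (−1.83). ZSWIM2 had levels of −0.71, −0.42 and −0.31 in controls, next to the floor. Between 2 and 4 of the 6 passed when a fetus was left out, and without control fetus 2 MAK was at 1.58 and SYCE1 at 1.53 and neither passed, while HORMAD1 and ZSWIM2 did.

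Olfactory receptors, odorant receptors of a large family of similar genes whose probes may share signal, were 2 higher and 4 lower of 6 (median LFC −1.54, 3 well above the floor). OR8B4 showed the largest rise of the described proteins, from 3.95, 0.87 and 0.78 in controls to 4.65, 4.44 and 4.49 with BPA. Control fetus 1 was just below the exposed fetuses and the other 2 controls far below them (LFC = 2.66, SE 0.74). The controls had a mean height of 2.83 above the lowest values, so the size of this rise depends on levels near the floor. An olfactory receptor without a number (ENSMMUT00000020584) fell, with 5.36, 6.59 and 3.84 in controls and 3.11, 2.07 and 2.90 in exposed fetuses (LFC = −2.57, SE 0.71). OR8B12, taken up after its values were seen, was lower as well, with 3.56, 4.19 and 4.08 in controls and 1.63, 1.16 and 1.30 in exposed fetuses (LFC = −2.58, SE 0.64), and was not well above the floor. Of the others OR9Q2 was higher (1.88) and OR2T6 (−1.68) and OR5T3 (−1.40) lower. With a fetus left out, 1 to 4 of the 6 passed, OR8B12 among them each time. Without control fetus 2 it was at −2.45 and was the 1 that passed, OR8B4 being at 2.16 and the receptor without a number at −1.91.

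Outside these groups stood 17 named proteins, 5 higher and 12 lower. A protein described as family 13, member C1-like (ENSMMUT00000005248) was at 3.16, 3.04 and 2.30 in controls and 4.90, 6.47 and 3.51 with BPA. BPA fetus 5 was the highest and BPA fetus 6 just above control fetus 1 (LFC = 2.13, SE 0.68), and without control fetus 2 it was at 2.23 and did not pass. C1q subcomponent-like 1, a secreted C1q-domain protein of the nervous system, gave 5.52, 6.26 and 4.50 in controls and 3.64, 3.27 and 2.58 in exposed fetuses. It was separated in every fetus (LFC = −2.26, SE 0.56) and passed in all but 1 of the settings with a fetus left out, the exception being BPA fetus 6 (−1.97). PMS2CL, a relative of the mismatch repair gene PMS2 with which it shares sequence (ENSMMUT00000042488), had a mean level above the array medians, at 9.50, 9.35 and 9.37 in controls and 10.52, 11.02 and 10.51 with BPA. The controls were close together and every exposed fetus was well above them, with LFC = 1.28, SE 0.40, a factor of 2.43. Without control fetus 2 it was at 1.25 and did not pass. Of the remaining ones, placenta-specific 1-like protein was higher but not well above the floor (2.66), Kelch-like protein 17 was higher well above it (1.59), and an S100-A7-like protein had the largest fall of the named proteins (−3.44), from 1.17, 3.58 and 4.34 in controls to −0.27, −0.87 and −0.09 with BPA, likewise not well above the floor.

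**Figure D2:**
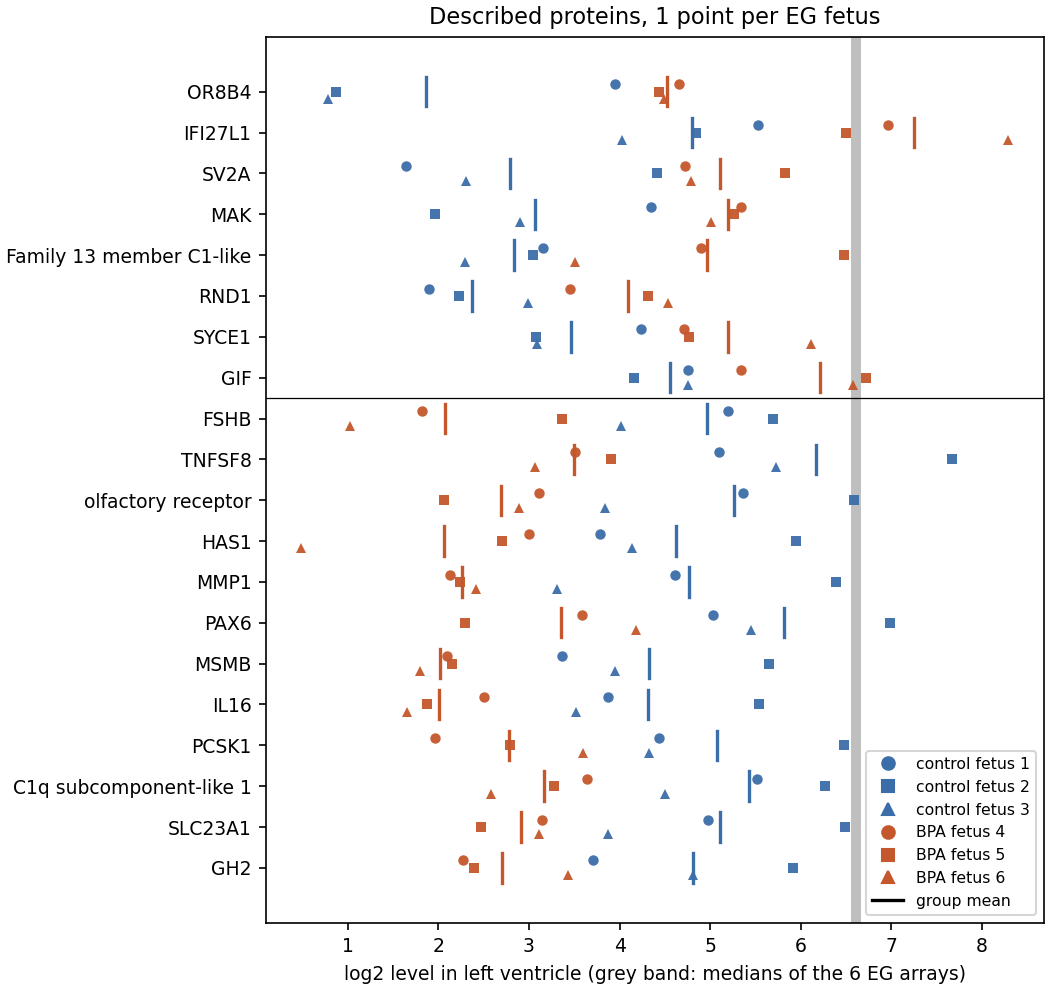
Log2 level (horizontal axis) of the 20 described proteins in LV of each EG fetus, controls in blue and BPA exposed fetuses in orange, 1 point per fetus and a bar at each group mean, with 8 rises above the line and 12 falls below it. In each of the 12 falls the square of control fetus 2 is the rightmost point, and in each row the groups do not overlap.

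The array of control fetus 2 moved with the falls. It had the highest control level in 12 of the 12 described falls and in 1 of the 8 described rises, in 58 of the 76 lower proteins, and in 88 of the 115 lower transcripts called. This was so for 38.9% of all tested transcripts and for 44.9% of those at or below the array medians, where most calls lay. When its array was left out, 112 transcripts passed, 50 higher and 62 lower, and 54 of these were among the 163. Of the 76 named proteins 22 passed then (8 higher, 14 lower), and of the 20 described SV2A, MMP1 and C1q subcomponent-like 1 did. The 12 falls then had LFC from −2.53 to −1.51 and the 8 rises 1.46 to 3.13. Their signs could not turn, because the 20 were chosen for groups that do not overlap. Leaving out any other EG fetus kept 26 to 41 of the 76 named proteins and 7 to 12 of the 20. The part of array quality in the falls was not tested. A fit on the 6 EG arrays alone, which takes no estimate of the spread from LG arrays, called 37 of the 76 and 7 of the 20, and 80 of the 163.

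**Figure D3:**
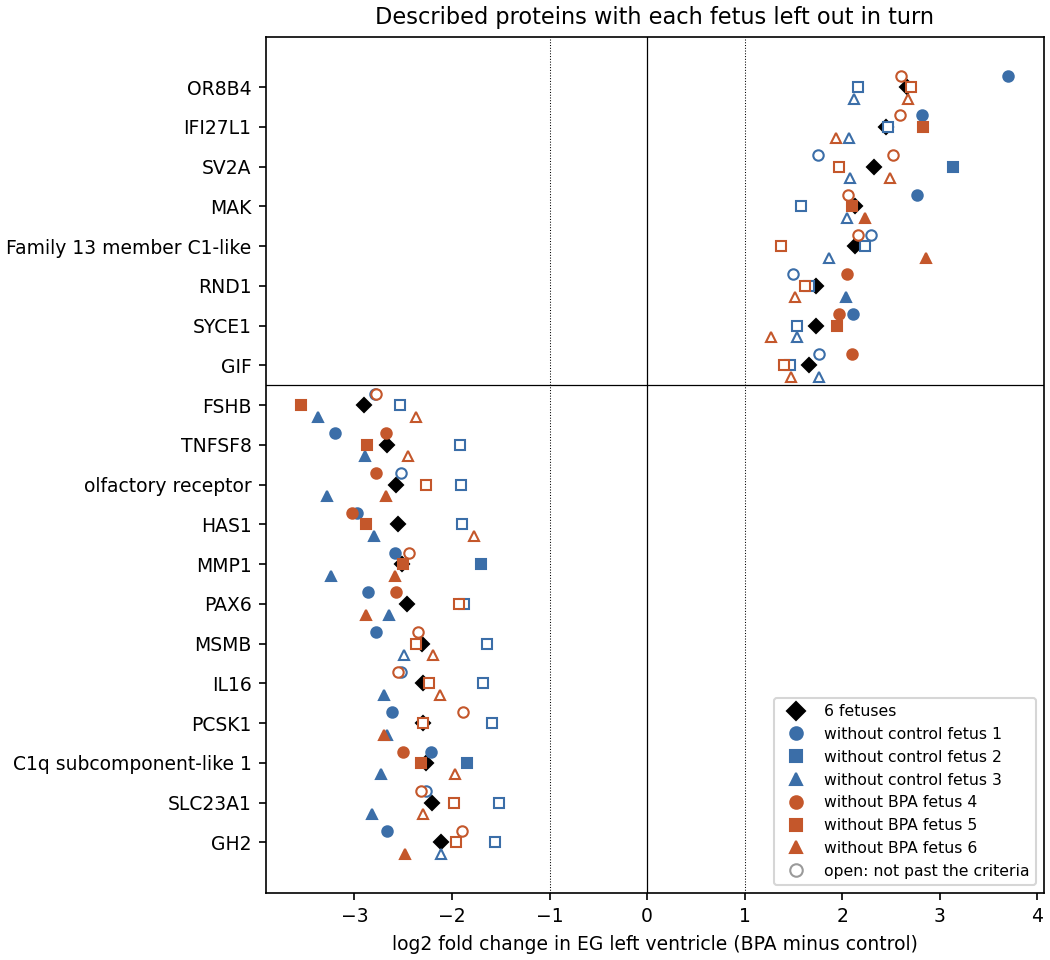
Log2 fold change (BPA minus control, horizontal axis) of the 20 described proteins with all 6 EG fetuses (black diamonds) and with each fetus left out in turn (coloured symbols), filled where the protein still passed the criteria and open where it did not. No symbol crosses 0, which follows from the choice of proteins whose groups do not overlap. Most coloured symbols are open, and for the 12 falls the blue square, without control fetus 2, lies right of the diamond.

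Arrays of the other tissues of the same EG fetuses gave values that the LV list did not use. These tissues were normalized separately, so only differences are set side by side. For LA and RA the authors amplified the cDNA by PCR because little tissue was available, and for LV and RV they describe no such step. Atrial differences may therefore be unlike those of LV for technical reasons, which was not tested. In RV, 26 of the 106 proteins were tested and 0 passed by limma (0.615% of all transcripts tested there did), with 2 at an unadjusted p of at most 0.05. The counts were 1 of 22 for LA (background 0.582%), 1 of 28 for RA (0.439%) and 2 of 16 for BFM (0.267%). The median LFC of the 106 was −0.01 for RV, 0.02 for LA, −0.07 for RA and −0.01 for BFM, near the medians of all tested transcripts of 0.00, −0.04, −0.04 and 0.01. A change of 1 or more was measured for 2 of the 106 proteins in RV, for 1 in each atrium and for 2 in BFM. FSHB, the largest described fall in LV, had an LFC of 0.10 in RV, −0.03 and −0.08 in the left and right atrium and −0.46 in skeletal muscle, and OR8B4, the largest described rise, 0.18, −0.15, −0.19 and −0.32. TNFSF8 stood at 0.41, −0.18, −0.36 and −0.01 and MMP1 at 0.18, 0.23, −0.23 and −0.13 in that order, all smaller in size than 0.5.

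Of the 20 described proteins, 4 had groups that did not overlap in RV, where 17.8% of all transcripts did not. These were IFI27L1, the family 13, member C1-like protein (LFC = 0.80, SE 0.43) and IL16 (LFC = −0.53, SE 0.25) in the direction of LV, and C1q subcomponent-like 1 (LFC = 0.51, SE 0.38) in the opposite one. In BFM 4 of the 20 did not overlap (10.2% of all transcripts there), IFI27L1 and FSHB (LFC = −0.46, SE 0.22) in the direction of LV and OR8B4 (LFC = −0.32, SE 0.15) and SYCE1 (LFC = −0.52, SE 0.15) in the opposite one, and in each atrium it was 1, IFI27L1 (9.35% of all transcripts in LA and 6.87% in RA). Of these IFI27L1 passed the criteria in a tissue other than LV. In RV its levels were 5.16, 5.79 and 4.63 in controls and 6.89, 6.85 and 7.89 in exposed fetuses, LFC = 2.02, SE 0.71, which did not pass the criteria. LA gave 6.00, 6.93 and 6.01 against 8.70, 8.69 and 9.35 (LFC = 2.60, SE 0.54) and RA 6.67, 7.21 and 6.03 against 8.88, 8.72 and 9.40 (LFC = 2.36, SE 0.56), both past the criteria (limma). In BFM the levels were 6.93, 7.11 and 6.71 and 7.96, 8.32 and 8.64, also past them (LFC = 1.39, SE 0.38). The groups did not overlap in any of the 5 tissues, with an exact two-sided permutation p of 0.1 in each of the 4 outside LV, and limma adjusted p-values of 0.975 to 1.00. These values come from the same 6 animals, so they are not independent replicates of the exposure, and BPA fetus 6 was the highest in each tissue.

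PMS2CL, which was not described fetus by fetus under the rule and was taken up after its values were seen, was also read in the other tissues. RV levels were 9.37, 9.57 and 9.46 in controls and 10.30, 10.93 and 10.25 with BPA (LFC = 1.02, SE 0.35), and BFM levels 10.46, 10.25 and 10.14 and 11.41, 11.53 and 11.14 (LFC = 1.07, SE 0.27), the latter past the criteria. LA showed a smaller separation (10.26, 10.41 and 10.56 against 10.68, 11.16 and 10.75, LFC = 0.46, SE 0.19), and in RA control fetus 3 lay among the exposed fetuses (10.53, 10.42 and 11.28 against 11.09, 11.44 and 10.99, LFC = 0.43, SE 0.37, exact two-sided permutation p = 0.3). BPA fetus 5 was the highest in every tissue. Whether the difference belongs to the exposure or to the animals cannot be told apart with 3 animals a side.

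**Figure D4:**
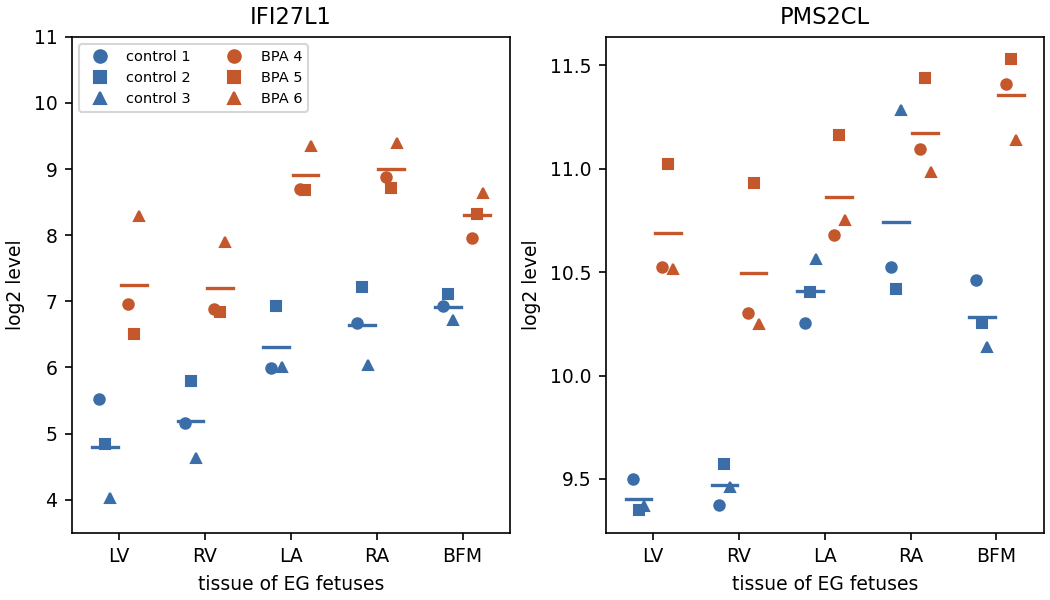
Log2 level (vertical axis) of IFI27L1 (left) and PMS2CL (right) in the 5 tissues of the 6 EG fetuses, 1 point per fetus with a bar at each group mean, controls in blue and BPA exposed fetuses in orange; tissues were normalized separately and the vertical axes do not start at 0. The orange points of IFI27L1 lie above the blue ones in every tissue, and those of PMS2CL in every tissue but RA.

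In LV of LG fetuses, which are other animals on the same slide and in the same fit, 5 of the 106 proteins passed (4.72%, against 0.84% of all tested transcripts), 3 higher and 2 lower, and the median LFC was 0.15 (0.06 over all tested transcripts). The LG and EG comparisons share 1 estimate of the spread for each transcript, so a transcript with a small SD can pass in both. The family 13, member C1-like protein, higher in EG, was lower in LG, with 6.20, 4.83 and 6.15 in LG controls and 2.65, 2.87 and 2.18 in LG exposed fetuses (LFC = −3.16, SE 0.68, limma adjusted p = 0.851). Neutral ceramidase ASAH2 was lower in both windows, in LG with 3.38, 3.24 and 2.80 against 0.08, 0.05 and 1.43 (LFC = −2.62, SE 0.64, limma adjusted p = 0.851). Both genes had no overlap between LG groups. RARRES3, lower in EG, was higher in LG, 2.59, 2.97 and 3.70 against 5.36, 4.28 and 5.35 (LFC = 1.91, SE 0.52, limma adjusted p = 0.983), as was hemopexin, 2.44, 3.04 and 2.74 against 3.85, 4.11 and 3.96 (LFC = 1.23, SE 0.38). Of the 73 named proteins whose groups did not overlap in EG, 8 (11.0%) did not overlap in LG either and lay the other way. Of the 1890 tested transcripts that did not overlap in EG this was 6.08%. The sets are unlike, as the 73 had also passed the criteria, with a spread estimated partly on LG arrays. Another 2 of the 73 lay the same way in LG, a share that was not counted over all tested transcripts. The remaining protein that passed was described as an uncharacterized fragment (IGHEP2). FSHB, TNFSF8 and PAX6 had LG values of 0.72, 0.21 and 0.04 and did not pass.

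Genes that the study followed in the heart did not pass in LV EG. MYH6, the alpha myosin heavy chain of atria, had levels of 6.73, 6.44 and 6.48 in controls and 5.69, 7.16 and 6.20 in exposed fetuses, at the array medians. The groups overlapped (LFC = −0.20, SE 1.47, exact two-sided permutation p = 0.7), and the large SE comes from LG arrays that share the fit, where MYH6 ranged from 5.56 to 14.43. ADAM12, a metalloprotease of tissue remodelling, gave 7.22, 7.52 and 7.68 and 7.49, 7.76 and 7.45 (LFC = 0.09, SE 0.36, exact permutation p = 0.6). Thyroid hormone receptor beta (THRB) was at 6.93, 7.85 and 7.25 and 6.77, 7.16 and 7.08 (LFC = −0.34, SE 0.39, exact permutation p = 0.4), control fetus 2 being the highest of the 6. The paper prints an LFC of the other sign for THRB in LV EG, 0.845, and 1.185 in LV LG. Here 0.845 was the LFC in LV LG and 1.185 the contrast of LG minus EG. PDK4, which restrains glucose oxidation, varied widely, 8.48, 5.62 and 8.19 in controls and 8.94, 7.24 and 7.60 with BPA, control fetus 2 being the lowest (LFC = 0.50, SE 0.86, exact permutation p = 0.8). Without control fetus 2 its LFC was −0.41. Glycogenin (GYG1), the primer of glycogen, was nearly level over all fetuses, 9.89, 9.77 and 9.86 and 10.16, 9.66 and 9.81 (LFC = 0.04, SE 0.28), and did not pass the filter on variation.

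In all, 34 transcripts named from other comparisons of the study were read in LV EG, of which 19 had a mean above the array medians. Of the 29 that were tested 0 passed by limma, and 0 had an unadjusted p of at most 0.05, where 0.925% and 4.84% of all tested transcripts did, so that 0 of 29 lies near the background. The groups did not overlap for 5 of the 34 (10.7% of all transcripts), the 3 leukocyte transcripts above, DHRS7C and the kinetochore motor CENPE (7.03, 6.86 and 6.98 against 7.29, 7.77 and 7.15, exact permutation p = 0.1). Matrix remodelling and growth factor genes numbered 8 with a median LFC of 0.09, and fuel metabolism and thyroid hormone receptor genes 4 with 0.27. Hexokinase HK2 was the highest of the latter (LFC 0.94, SE 0.52, exact permutation p = 0.2), with control fetus 2 the lowest at 6.33. Cell division genes were 4 (TTK, CENPE, CDC25C and CIT) with LFC from −0.67 to 0.45, and the smooth muscle myosin MYH11 was at 7.59, 6.94 and 5.78 and 7.05, 6.93 and 5.82. The immediate early genes NR4A1, APOLD1 and SGK1, which respond to handling and stress, had LFC of 0.07 to 0.12 and overlapped. Of 5 cardiac and chamber genes, DHRS7C, a protein of the sarcoplasmic reticulum of striated muscle, was high in all fetuses but control fetus 2, 11.76, 8.73 and 11.87 in controls and 12.14, 12.34 and 12.12 with BPA (LFC 1.42, SE 0.68, exact permutation p = 0.1), and did not pass the filter on variation. The atrial channel KCNA5 and the trabecular growth factor BMP10 were below the array medians in all 6 fetuses. Ventricular markers such as beta myosin were not among the transcripts with a published description, so the labelled tissue was not checked further.

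**Figure D5:**
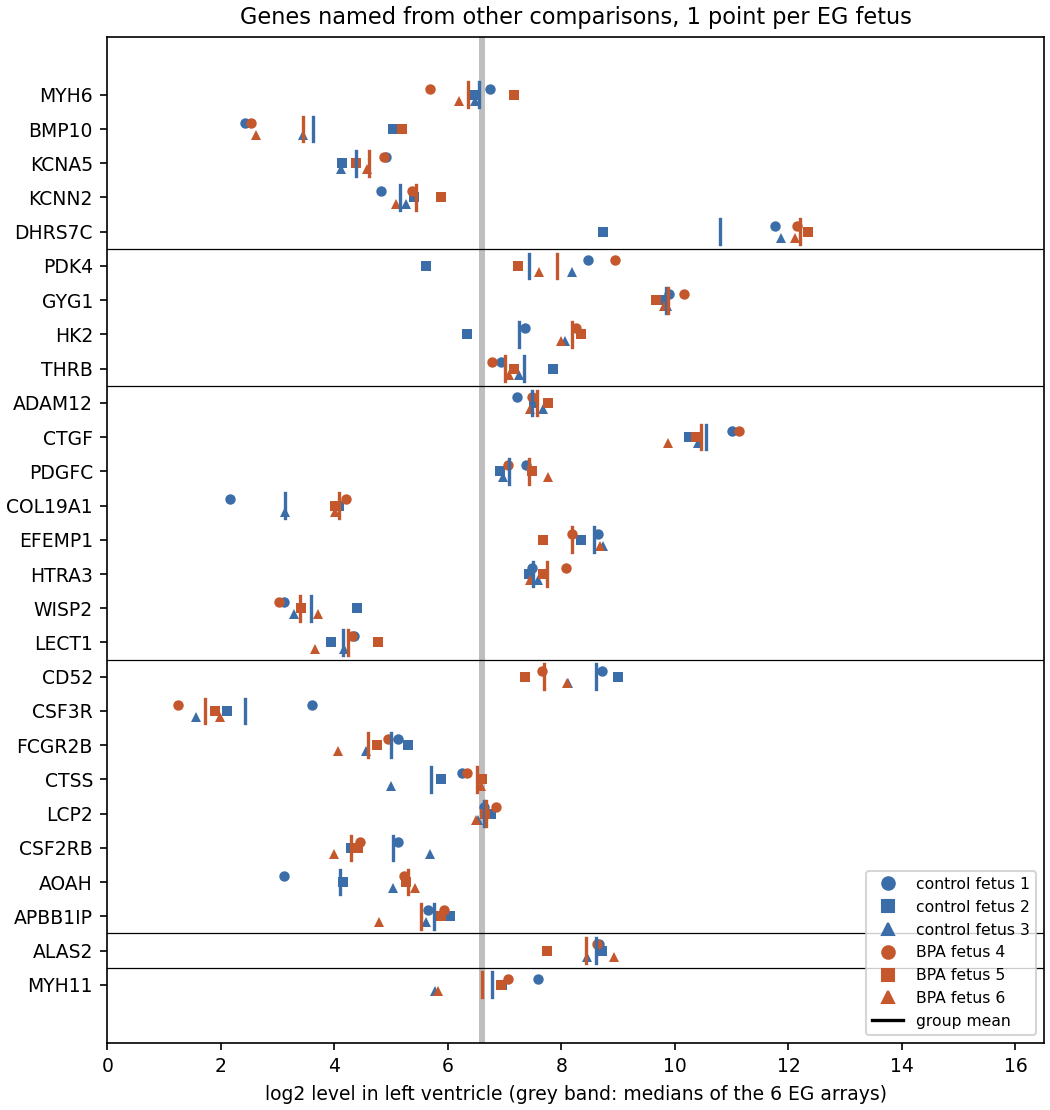
Log2 level (horizontal axis) in LV of each EG fetus for 27 transcripts named from other comparisons, in blocks of cardiac and chamber genes, fuel metabolism and thyroid hormone receptor, matrix remodelling and growth factors, leukocyte markers, an erythroid and a smooth muscle marker, with 1 point per fetus and a bar at each group mean. Blue and orange points overlap in most rows, and control fetus 2 (blue square) stands far below the others for DHRS7C and PDK4.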

How the data were processed

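The authors hybridised LV cDNA to custom rhesus arrays designed from Ensembl Mmul_1, background corrected and quantile normalized the probe intensities within each tissue, summarised them by median polish, and deposited 1 log2 value per transcript and array. All LV arrays shared 1 slide. Names come from the descriptions the authors published for transcripts that passed their criteria, and symbols were assigned from them; no table used here pairs the other transcripts with symbols. Members and lists were chosen with earlier results of these data known.

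The deposited log2 values were fitted with limma (version 3.58.1, R 4.3.3) on the 12 arrays of a tissue, with 4 group means and default empirical Bayes moderation, after a filter on the interquartile range (at least 0.5). A call needed an absolute LFC of at least 1 and an unadjusted p of at most 0.01, and Benjamini-Hochberg adjusted values were computed over all tested transcripts. Exact two-sided permutation tests used the 10 distinct splits of 6 fetuses. They were not run on LV EG values of transcripts of the LV list. The 8 largest rises and 12 largest falls were taken from named proteins of that list that were well above the floor (4 log2 units), did not overlap between groups and lay more than 0.001 above the lowest value on each EG array. Further transcripts were the candidates MYH6, ADAM12, THRB, GYG1 and PDK4 and the listed groups. The values of 1 listed protein are not reported here. Each fetus is 1 sample. Alternatives changed the filters, normalization, array weights, arrays fitted, floor and fetuses. The fit was also run on simulated data with 200 shifted transcripts. Those values were drawn independently, with no floor and no outlying array, so the run bears on the code and not on the calls.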

Additional observations from a re-analysis of the deposited data

Results flagged for a closer look

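Of the transcripts read here that passed the filter on variation, 9 separated in opposite directions in EG and LG. Their 3 BPA exposed fetuses lay wholly on one side of the 3 controls in LV EG and wholly on the other in LV LG. The difference between the windows was not tested for these 9. They were 8 named proteins (11.0% of the 73 that did not overlap in EG, against 6.08% of the 1890 tested transcripts that did not overlap there) and CENPE. The 73 had also passed the criteria, which the 1890 were not chosen for, so these shares are of unlike sets. The family 13, member C1-like protein (LV LG LFC −3.16), ZSWIM2 (−1.74) and CENPE (−1.65) lay above the controls with BPA in EG and below them in LG. SLC23A1 (LV LG LFC 1.01), HRH4 (1.25), HPX (1.23), RARRES3 (1.91), FAM150A (0.50) and FAM163A (0.52) lay below the controls with BPA in EG and above them in LG. DHRS7C, which did not pass the filter on variation, separated in the same opposed way, with LFC 1.42 in EG and −0.46 in LG. In EG its control fetus 2 stood far below all the other fetuses. In a fit without that filter, the contrast of the windows for DHRS7C was −1.88 (SE 0.96, limma adjusted p = 0.885).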

How the results depend on the processing

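The 163 calls in LV EG became 77 with an interquartile range of at least 1, 86 with transcripts below the 25th percentile of mean level removed and 410 with array weights, which gave control fetus 2 little influence and called 145 of the 163. With the EG arrays alone 151 passed, 80 of them among the 163, with 37 of the 76 named proteins and 7 of the 20 described ones, and with a trended and robust prior 125 passed, 101 of them among the 163, with 36 of the 76 and 15 of the 20. The calls became 0 at a limma adjusted p of at most 0.05, where the smallest adjusted p over all settings was 0.0676. With 1 EG fetus left out, 112 to 245 transcripts passed, 112 without control fetus 2 and 245 without control fetus 1. Rises were 48 of the 163 (29.4%), 64 of 155 (41.3%) after a further quantile normalization, 50 of 112 without control fetus 2 and 41 of 228 without BPA fetus 4. Of the 76 named proteins, 49 lay well above the floor at a height of 4, 75 at 2 and 5 at 6. Over the 20 described proteins and the candidates, 237 values under an alternative kept their direction and side of the criteria and 100 kept the direction and no longer passed. The sign turned for 6 values of candidates that did not pass: PDK4 (−0.25 with array weights, and −0.41 to 1.02 with a fetus left out, below 0 without control fetus 2 and without BPA fetus 4), MYH6 (−0.61 to 0.13, above 0 without BPA fetus 4) and ADAM12 (−0.037 to 0.19, below 0 without control fetus 1 and without BPA fetus 5). It turned for none of the 20 proteins, whose groups were chosen not to overlap, so that leaving out a fetus cannot turn it. Among the 20, FSHB, TNFSF8 and C1q subcomponent-like 1 passed in each alternative fit they entered that kept all 6 fetuses. FSHB and C1q subcomponent-like 1 did not enter the fit with low mean levels removed. The 20 were chosen for passing on these same arrays, so this describes the settings and is no support for the changes. The cause of these shifts was not tested. No paired analysis was possible because the EG BPA fetuses (4 to 6) and EG control fetuses (1 to 3) share no replicate number.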
